A study of Caenorhabditis elegans with 6 samples.

Results

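The transthyretin-like genes of Caenorhabditis elegans, named ttr, were followed in whole animals of a pals-25 mutant and of its parent strain. Members were all genes whose WormBase symbol begins with ttr-, found by matching the sequence name of each listed transcript to the Ensembl WBcel235 annotation. This gave 58 genes of the 22010 genes listed, and all 58 are annotated as protein coding. The rule uses no measured value, but the family was taken up with earlier results of these data known.

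Transthyretin-like proteins form a large family found in nematodes. Most are short proteins with a signal peptide and are secreted, and relatives are abundant among the proteins that parasitic nematodes release into their hosts. Their sequence is distantly related to vertebrate transthyretin, the carrier of thyroid hormone in blood, but a shared function is not established. In C. elegans, ttr-52 encodes a secreted protein that binds phosphatidylserine on dying cells and bridges it to the engulfment receptor CED-1, and ttr-33 protects dopaminergic neurons from oxidative damage. Most of the other members have no assigned role.

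RNA of whole fourth-stage (L4) larvae was compared between 3 libraries of pals-25(icb98) and 3 libraries of WT animals. The icb98 allele came from an EMS (chemical mutagenesis) screen as a single line and carries a premature stop near the end of pals-25. This gene of the pals family acts in the responses to intracellular pathogens and to oomycetes. The paper describes icb98 as a gain-of-function allele under which a part of the genes of each response is switched on without infection. Both groups carry the transgene icbIs4, which expresses GFP from the promoter of chil-27 and mCherry from that of col-12, so WT here means the unmutagenised reporter strain, whose sample titles also name N2, the standard laboratory strain of C. elegans. Animals of both groups were raised from bleached embryos at 20 °C on the E. coli strain OP50 and collected at L4.

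Libraries held 43614668 to 44425046 estimated counts in pals-25(icb98) and 40709626 to 47297002 in WT. The mRNA of pals-25 itself was present in all libraries, at 3.78 to 4.23 CPM (estimated counts scaled to a common library total) in pals-25(icb98) against 1.77 to 2.47 CPM in WT, and since the allele is a point change this level does not check the labels. The endogenous gene chil-27, whose promoter drives the reporter, had 33.5 to 40.2 CPM in the 3 pals-25(icb98) libraries against 0.0485 to 0.221 CPM in WT. WT replicate 2 stood apart from the other WT libraries. For 15% of all 16166 tested genes it lay over 2-fold from both other WT libraries, on the same side, whereas the same measure gave 0.581 to 1.09% for each of the other 5 libraries against its own group. The count of called ttr genes is therefore also given for a fit without that library.

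The developmental markers also differed between the groups. Of 12 molting genes, which encode cuticle and molting proteins made in cycles around each larval molt, 7 were lower and 1 was higher in pals-25(icb98), with a median log2 change of -1.55. Of 4 adult-stage genes, 3 were higher, namely the adult collagen col-19 and the yolk proteins vit-2 and vit-6, with a median over the 4 of 2.05. By the test given below, 9.8% of all tested genes were higher and 10.7% were lower. The summed level of the adult-stage genes was 9766 to 13485 CPM in pals-25(icb98), against 3409, 1688 and 3683 CPM in WT replicates 1, 2 and 3. The molting genes summed to 1294 to 2002 CPM in pals-25(icb98) and to 3577, 6244 and 4290 CPM in WT replicates 1, 2 and 3. The part of developmental stage in the ttr values below was not tested, and stage and genotype cannot be told apart across the 2 groups.

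The 58 members lie on all 6 chromosomes, with 22 on V, 12 on X, 10 on IV, 9 on III, 3 on I and 2 on II. Their longest annotated proteins have 89 to 406 residues, and the middle of the distribution is narrow, with a median of 143 and quartiles at 139 and 149.75 residues. The gene models have 2 to 9 exons, with a median of 3. A single transcript is listed for 40 members, and up to 3 for the other 18. Of the 58, 29 lie within 5000 bases of another ttr gene, in 12 runs of 2 or 3 neighbours. The annotated exons of 17 members share bases with those of another gene, and the strand setting of the counting is not given in the sources used here, so reads of such a stretch could not be assigned to one strand.

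The family was expressed over a wide range. Per transcript length, ttr-16 was highest at 674 ± 7.46 TPM (counts scaled by transcript length and library) in pals-25(icb98) and 653 ± 40.3 TPM in WT (SD, n = 3 each, as for all SDs here). Next in pals-25(icb98) came ttr-15 at 431 ± 23.9 TPM, ttr-14 at 270 ± 11.1, ttr-46 at 241 ± 4.88 and ttr-41 at 202 ± 4.96 TPM. In WT the order below ttr-16 was ttr-15 at 270 ± 50 TPM, ttr-46 at 208 ± 3.43, ttr-41 at 196 ± 4.95, ttr-18 at 186 ± 75.1 and ttr-14 at 162 ± 65.1 TPM. The levels of ttr-41, ttr-18 and ttr-14 in WT lay within the spread of their replicates of each other. The 3 members of highest mean over all libraries, ttr-16, ttr-15 and ttr-46, made up 36.7% of the family's TPM. At the other end, 25 of the 58 members averaged under 10 TPM, among them the untested ttr-19. The median over the 58 was 12.1 TPM.

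One member, ttr-19 (C12D8.4, chromosome V, 10226828-10227433), had no count in any library and could not be tested. A count of 0 in a library is still possible where the expected count is as high as 3.

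In pals-25(icb98), 9 of the 57 tested members were higher and 0 were lower than in WT. These 9 were ttr-42, ttr-32, ttr-38, ttr-37, ttr-15, ttr-45, ttr-51, ttr-2 and ttr-46, in order of fitted change, and the changes ran over a range from 18.0-fold for ttr-42 to 1.17-fold for ttr-46. A gene was called at an adjusted p under 0.05 in edgeR's quasi-likelihood test, adjusted by Benjamini-Hochberg over all 16166 genes. Of all tested genes, 20.5% were called, 9.8% higher and 10.7% lower, so the family had 15.8% called higher against a background of 9.8%, and 15.8% called in either direction against 20.5%. At an unadjusted p under 0.05, 14 of the 57 members were higher and 3 were lower, against 16.2% and 19.8% of all tested genes. The 6 libraries give few degrees of freedom, and they were prepared as biological replicates of 1 line per group, so the p-values measure the spread between these libraries.

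**Figure D1:**
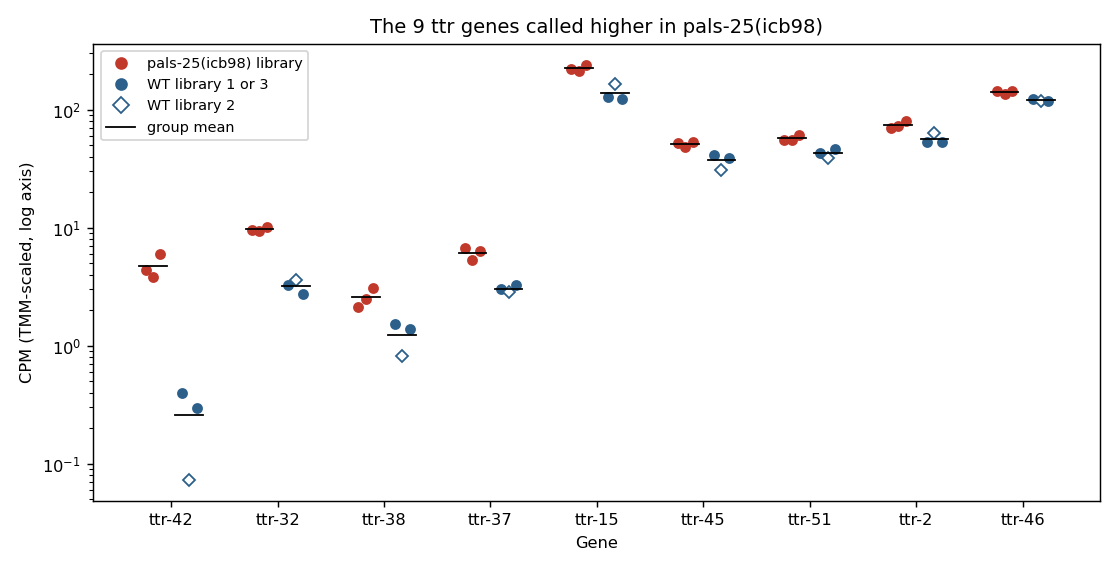
CPM on a log axis for the 9 called ttr genes, ordered by fitted change, with the 3 pals-25(icb98) libraries left of the 3 WT libraries for each gene and a bar at each group mean. For every one of the 9 genes the pals-25(icb98) points lie above all WT points, by the most for ttr-42 and by the least for ttr-46, and WT library 2 (open diamond) is the lowest point of ttr-42 and the highest WT point of ttr-15.

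The gene with the largest change was ttr-42 (H01M10.3, chromosome X, 2577742-2578262, plus strand, 139 residues). It had 186, 171 and 266 counts in pals-25(icb98) replicates 1, 2 and 3, against 19, 3 and 12 counts in WT. In CPM these were 4.34, 3.83 and 6.02 in pals-25(icb98) and 0.401, 0.0727 and 0.295 in WT. All 3 mutant libraries were far above all 3 WT libraries, and WT replicate 2 held the lowest value, so the WT mean of 0.256 ± 0.167 CPM rests on few reads. The log2 change was 4.17 (SE 0.48, adjusted p = 0.00426). Without WT replicate 2 it was 3.74 (SE 0.29), and the call was kept in all 6 fits that left out 1 library. Its exons share 52 of 479 bases with H01M10.1 on the opposite strand, which averaged 2.76 CPM in pals-25(icb98) and 1.66 CPM in WT and was not called (log2 change 0.74, adjusted p = 0.0962).

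The next largest called change was that of ttr-32. The gene (R13A5.3, chromosome III, 7566411-7567523, plus strand, 139 residues) had 9.56, 9.34 and 10.2 CPM in pals-25(icb98), against 3.27, 3.61 and 2.75 CPM in WT. All mutant libraries lay well above all WT libraries. The log2 change was 1.59 (SE 0.14, adjusted p = 0.00139), a 3.01-fold difference, and the gene was called in all 6 fits with a library left out. Its neighbour ttr-8, at a gap of 1063 bases, had a log2 change of 0.59 (SE 0.50, adjusted p = 0.432) and was not called. The exons of ttr-32 share 49 of 632 bases with R13A5.7 on the opposite strand. R13A5.7 averaged 7.05 CPM in pals-25(icb98) and 7.99 CPM in WT and was not called (log2 change -0.18, adjusted p = 0.426).

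The third member called in all 6 of those fits was ttr-37 (F21E9.3, chromosome X, 1335364-1337175, minus strand, 149 residues). It had 6.71, 5.27 and 6.29 CPM in pals-25(icb98) and 3.04, 2.86 and 3.25 CPM in WT. The groups did not overlap, and the difference was 2.0-fold (log2 1.0, SE 0.14, adjusted p = 0.00794). The gene before it on the chromosome, F21E9.2, was lower in pals-25(icb98), with a log2 change of -1.10 (adjusted p = 0.0126).

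A similar fold change but a less certain call was seen for ttr-38 (F35G8.2, chromosome X, 9312515-9314497, minus strand). Its CPM were 2.15, 2.46 and 3.10 in pals-25(icb98), against 1.52, 0.82 and 1.38 in WT. WT replicate 2 was again the lowest. The log2 change of 1.05 (SE 0.28) had an adjusted p of 0.0455, and the call was kept without WT replicate 2 (0.82, adjusted p = 0.00886) but lost when any one of the other 5 libraries was left out (adjusted p 0.0615 to 0.15). The preceding gene H29C22.1 was also higher, at 0.720 CPM in pals-25(icb98) and 0.180 CPM in WT (log2 1.96, adjusted p = 0.0212).

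Among the abundant members, ttr-15 (T07C4.5, chromosome III, 10337847-10339440, plus strand, 130 residues) had the largest called change. It had 223, 213 and 240 CPM in pals-25(icb98), against 127, 166 and 124 CPM in WT. Here WT replicate 2 was the highest WT library, yet it stayed below the lowest mutant library. The difference was 1.62-fold (log2 0.70, SE 0.12, adjusted p = 0.0159). Without WT replicate 2 the log2 change was 0.84 (SE 0.06), while the call was lost without WT replicate 3 or without any one of the mutant libraries, with adjusted p of 0.0501 to 0.0721. The neighbouring gene ced-9, a cell death inhibitor, was called higher with a smaller change (log2 0.36, adjusted p = 0.0229).

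On chromosome IV, ttr-51 and ttr-45 are neighbours that run in opposite directions, 1913 bases apart, and were the only run of neighbouring ttr genes in which both members were called. For ttr-51 (JC8.8, 13250655-13252311, minus strand) the CPM were 55.6, 55.5 and 61.5 in pals-25(icb98) and 43.0, 38.8 and 46.6 in WT. For ttr-45 (JC8.14, 13254225-13255538, plus strand) they were 51.7, 48.0 and 52.7 in pals-25(icb98) and 41.1, 30.8 and 39.1 in WT. In both, all mutant libraries lay above all WT libraries. The log2 changes were 0.43 (SE 0.08, adjusted p = 0.020) for ttr-51 and 0.46 (SE 0.12, adjusted p = 0.0415) for ttr-45. The nearest tested genes on the outer sides that overlap neither member went the other way. These were cox-11 with a log2 change of -0.35 (adjusted p = 0.0370) and bus-12 with -1.44 (adjusted p = 0.0201). JC8.7, which shares 45 exonic bases with ttr-51 on the opposite strand, was not called (log2 change -0.05, adjusted p = 0.604). The call of ttr-51 was lost without WT replicate 1 or without any one mutant library, and that of ttr-45 without WT replicate 3 or without any one mutant library.

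The gene ttr-2 (K03H1.4, chromosome III, 9927769-9929004, plus strand, 148 residues) had 69.9, 71.9 and 79.5 CPM in pals-25(icb98), against 53.1, 63.2 and 53.3 CPM in WT. Its log2 change of 0.38 (SE 0.09, adjusted p = 0.0332) was kept without WT replicate 2 (0.47, adjusted p = 0.000132) and was not called when any one of the other 5 libraries was left out (adjusted p 0.0895 to 0.117). It sits between ttr-3 and ttr-1 in a run of 3, and neither of these was called. The log2 change of ttr-3 was 0.52 (adjusted p = 0.0731) at 2.97 CPM in pals-25(icb98) and 2.07 CPM in WT, and that of ttr-1 was 0.03 (adjusted p = 0.906).

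The smallest called change was that of ttr-46 (T07C12.7, chromosome V, 9951233-9952178, plus strand, 179 residues), at 144, 135 and 142 CPM in pals-25(icb98) and 122.2, 119.05 and 118.8 CPM in WT. The groups did not overlap, and the replicates of each group were close. The log2 change of 0.23 (SE 0.04, adjusted p = 0.0198) was the same as the median over the family. The call was lost without WT replicate 3 or without mutant replicate 1 or 3, with adjusted p of 0.0753 to 0.0883.

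The 9 called members lie on chromosomes III, IV, V and X, and they span the range of levels. Of the 11 members averaging over 100 TPM 4 were called. Of the 25 under 10 TPM, which include the untested ttr-19, 3 were called, and the remaining 2 called members lay between. The share of all genes called at these levels was not computed, so the counts are not compared. The most abundant member, ttr-16, was not called. It had 293, 282 and 282 CPM in pals-25(icb98) and 270, 287 and 263 CPM in WT, with WT replicate 2 inside the mutant range (log2 change 0.06, SE 0.05, adjusted p = 0.388). Its exons share 209 of 514 bases with lin-3, on the opposite strand, which was called higher at a far lower level (14.8 CPM in pals-25(icb98), 9.79 CPM in WT).

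The log2 change of the 57 tested members had a median of 0.23, against 0.005 for all tested genes. It was positive in 45 and negative in 12, and within 0.25 of 0 in 24. In 21 members all pals-25(icb98) libraries lay above all WT libraries and in 5 they lay below, which over all tested genes was the case for 24.4% and 24.8%. The summed level of the family was 1961, 1918 and 2026 CPM in pals-25(icb98), against 1668, 1571 and 1596 CPM in WT. Of the difference between the group means, 357 CPM, 68.4% came from ttr-14 and ttr-15 together, and the sum over the other 56 members was 1353 ± 24.0 CPM in pals-25(icb98) and 1240 ± 37.5 CPM in WT. In TPM the family summed to 3619 ± 88.0 in pals-25(icb98) and 3138 ± 118.9 in WT.

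**Figure D2:**
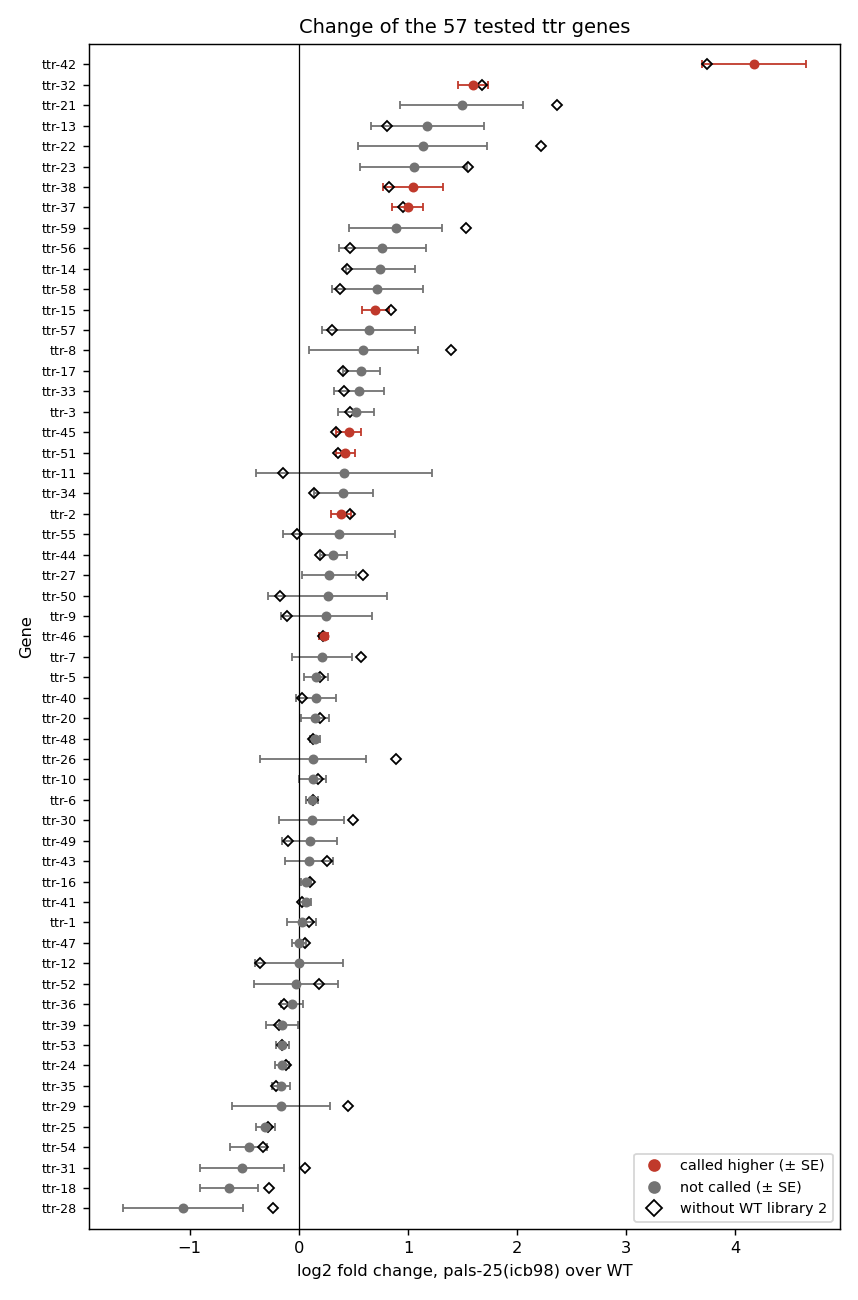
Fitted log2 fold change of pals-25(icb98) over WT for the 57 tested ttr genes, one gene per line with the highest at the top, as points with SE bars (red where called) and as open diamonds for the fit without WT library 2. The called changes run from 0.23 to 4.17, the uncalled ones from -1.06 to 1.49, and the diamonds lie farthest outside the SE bar for ttr-22, ttr-21, ttr-8, ttr-28, ttr-26 and ttr-59.

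The members whose roles are given above, ttr-52 and ttr-33, were not called. The bridging protein gene ttr-52 was among the least expressed, with 6, 11 and 12 counts in pals-25(icb98) and 10, 12 and 7 counts in WT. The ranges overlapped and the log2 change was -0.03 (SE 0.39, adjusted p = 0.963). With so few counts and an SE of this size, a change of moderate size is not excluded. For ttr-33 the CPM were 8.07, 7.15 and 9.52 in pals-25(icb98) and 7.44, 4.58 and 4.87 in WT. WT replicate 1 fell among the mutant libraries, and the log2 change of 0.55 (SE 0.23) had an adjusted p of 0.141. Without WT replicate 1 it was 0.80 and was called (adjusted p = 0.0453). The gene shares 817 bases of its span, but 0 exonic bases, with mig-6 on the opposite strand. That gene had 1253 CPM in pals-25(icb98) and 1272 CPM in WT. With txt-5 on the same strand, ttr-33 shares 42 of 588 exonic bases. The part of reads from these genes in the ttr-33 counts was not tested. For ttr-11, the counts were 32, 28 and 34 in pals-25(icb98) and 46, 1 and 24 in WT, so that the WT values lay on both sides of the mutant values and the log2 change of 0.41 had an SE of 0.81 (adjusted p = 0.735).

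Since ttr-52 acts in the engulfment of cell corpses, genes with a part in the recognition or clearance of dying cells were taken as a list. They do not all act in engulfment itself or in the same direction. Of these 18 genes, all tested, 0 were higher and 3 were lower in pals-25(icb98), with a median log2 change of 0.11. The 3 were the transporter gene ced-7 (log2 change -0.16, adjusted p = 0.0392), wah-1, the worm homolog of apoptosis-inducing factor (-0.30, adjusted p = 0.020), and the integrin alpha gene ina-1 (-0.31, adjusted p = 0.0485). The receptor gene ced-1 had 80.0 to 86.1 CPM in pals-25(icb98) and 51.4 to 75.7 CPM in WT, with no overlap, but did not pass the test (log2 change 0.44, adjusted p = 0.0818). The share of the list called was 3 of 18, near the background of 20.5% called in either direction. All 3 were lower, against 10.7% of all tested genes, and so few calls are not read as a change.

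A further 5 members had a fitted change over 1 in size on the log2 scale and were not called. The largest was ttr-21, at 2.77, 2.58 and 3.08 CPM in pals-25(icb98) and 0.72, 1.94 and 0.34 CPM in WT. All mutant libraries were above all WT libraries, but WT replicate 2 was over 2-fold above the other WT libraries, and the log2 change of 1.49 had an SE of 0.56 (adjusted p = 0.116). The transcript listed for ttr-21 has 1376 bases, against 521 in the annotated model. For ttr-22 the counts were 18, 20 and 19 in pals-25(icb98) and 4, 17 and 4 in WT (log2 change 1.14, SE 0.59, adjusted p = 0.226). For ttr-23 they were 39, 52 and 43 in pals-25(icb98) and 8, 32 and 22 in WT (log2 change 1.05, SE 0.49, adjusted p = 0.185). In both genes WT replicate 2 was the highest WT library. For ttr-13 they were 26, 41 and 24 in pals-25(icb98) and 25, 5 and 10 in WT, and in CPM, which allow for the deeper sequencing of WT replicate 1, the groups did not overlap (0.543 to 0.919 in pals-25(icb98), 0.121 to 0.527 in WT; log2 change 1.18, SE 0.52, adjusted p = 0.162). The only one of the 5 with a negative value was ttr-28, at 30, 46 and 38 counts in pals-25(icb98) and 49, 140 and 41 in WT (log2 change -1.06, SE 0.55, adjusted p = 0.224), and without WT replicate 2 its log2 change was -0.24.

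The WT libraries did not form one group for many members. In 18 of 57 members (31.6%) WT replicate 2 lay over 2-fold from both other WT libraries, against 15% of all tested genes. It was low in 10 members and high in 8. The share was larger in the family, and this difference was not tested. The same measure gave 3 members for WT replicate 1, 1 for WT replicate 3 and 0 for each pals-25(icb98) library. Of these 18 members, 17 were not called, the exception being ttr-42.

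**Figure D3:**
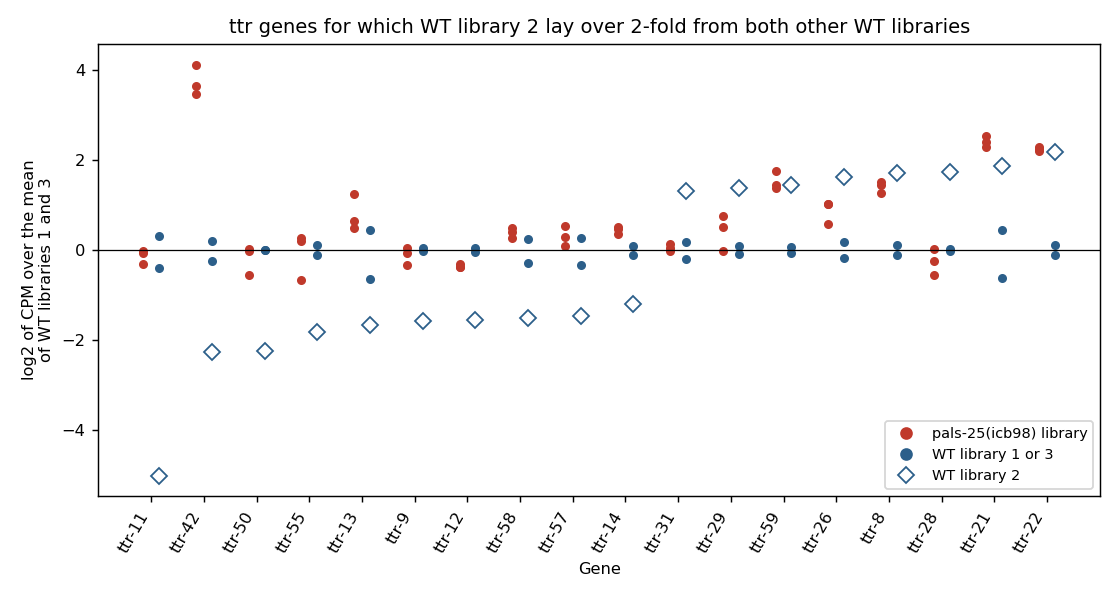
Each library's CPM for the 18 ttr genes in which WT library 2 lay over 2-fold from both other WT libraries, as log2 over the mean of WT libraries 1 and 3, with pals-25(icb98) left of WT for each gene. In the 10 genes on the left WT library 2 is low and the pals-25(icb98) libraries lie near WT libraries 1 and 3, except for ttr-42 and in part ttr-13, and in the 8 on the right WT library 2 is high and the pals-25(icb98) libraries lie near it for ttr-59, ttr-8, ttr-21 and ttr-22 but near WT libraries 1 and 3 for ttr-31 and ttr-28.

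The members that were low in WT replicate 2 included an abundant gene and several rare ones. The abundant one was ttr-14, which codes for the longest protein of the family, 406 residues. It had 398, 367 and 406 CPM in pals-25(icb98), against 307, 125 and 267 CPM in WT. All mutant libraries were highest, but the spread of WT left the log2 change of 0.74 with an SE of 0.32 (adjusted p = 0.152). For ttr-12 the CPM were 8.44, 8.04 and 8.12 in pals-25(icb98) and 10.8, 3.59 and 10.2 in WT. Its fitted fold of 1.0 thus averaged 2 WT libraries above the mutant range and 1 below it. Both ttr-12 and its neighbours ttr-11 and ttr-57, a run of 3 on chromosome V, were low in WT replicate 2, as were ttr-55 and ttr-58 of the run of 3 on chromosome I.

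The 8 members high in WT replicate 2 fell into different patterns. For ttr-8 the CPM were 6.78, 6.05 and 7.13 in pals-25(icb98) and 2.72, 8.26 and 2.31 in WT, and for ttr-59 they were 10.7, 10.2 and 13.3 in pals-25(icb98) and 4.13, 10.6 and 3.71 in WT. In these genes, as in ttr-21 and ttr-22, the mutant libraries resembled WT replicate 2. For ttr-31 the CPM were 14.2, 15.1 and 13.7 in pals-25(icb98) and 12, 34.1 and 15.7 in WT. There and in ttr-28 the mutant libraries resembled WT replicates 1 and 3. In the run of ttr-27, ttr-28 and ttr-29 on chromosome V, 2 of the 3 were high in WT replicate 2.

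Left out of the fit, WT replicate 2 changed the count of calls more than any other library. Without it 21 members were higher and 4 were lower of 57 tested, against a background of 37.4% of all tested genes called, 19.3% higher and 18.1% lower. All 9 of the calls from 6 libraries were kept and 16 were added. The additions that were higher were ttr-7, ttr-8, ttr-14, ttr-17, ttr-21, ttr-22, ttr-23, ttr-26, ttr-27, ttr-30, ttr-44 and ttr-59. Among them, ttr-21 had the largest log2 change, 2.37 (SE 0.27, adjusted p = 4.5e-05), followed by ttr-22 at 2.22 and ttr-23 at 1.55. The 4 that were lower had small changes, -0.36 for ttr-12, -0.29 for ttr-25, -0.28 for ttr-18 and -0.21 for ttr-35. The mutant group then stands against 2 WT libraries.

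**Figure D4:**
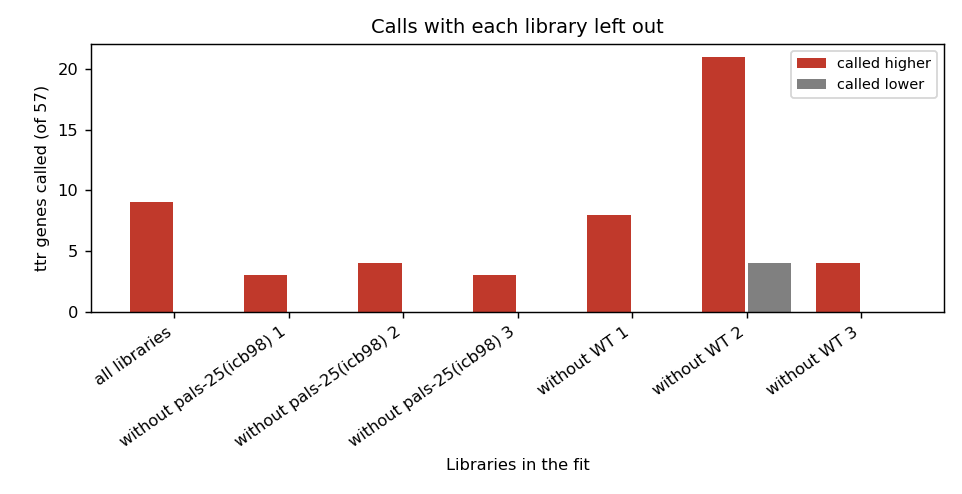
Number of ttr genes called higher (red) and lower (grey) of 57 tested, with all libraries and with each library left out in turn. With all libraries 9 were higher and 0 lower, without any one pals-25(icb98) library 3 or 4 were higher, without WT replicate 1 8 and without WT replicate 3 4 were higher, and without WT replicate 2 21 were higher and 4 lower.

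Leaving out any other library lowered the count. It was 3, 4 and 3 without pals-25(icb98) replicates 1, 2 and 3, 8 without WT replicate 1 and 4 without WT replicate 3, all of them higher. Of all tested genes, the share called higher in these fits also fell, to 4.16%, 5.02% and 4.42% without pals-25(icb98) replicates 1, 2 and 3, 7.06% without WT replicate 1 and 5.56% without WT replicate 3. The 8 without WT replicate 1 included ttr-33 and ttr-56 (adjusted p = 0.0453 and 0.0413), not called from all libraries, while ttr-2, ttr-38 and ttr-51 lost the call. Of the 9 called members, ttr-32, ttr-37 and ttr-42 were called in each of the 6 fits, and the other 6 lost the call in at least 3 of them.

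Counts of single isoforms were less certain than those of genes. For ttr-2, the called member with more than 1 transcript, K03H1.4.2 held 2188, 2570 and 2262 estimated counts in pals-25(icb98) and 1686, 1767 and 1302 in WT. Its other transcript, K03H1.4.1, held 810, 640 and 1251 in pals-25(icb98) and 833, 842 and 863 in WT, and these ranges overlapped. For ttr-44 the pair of listed transcripts had equal counts in every library, so no read told them apart. Only the sums per gene were tested.

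**Figure D5:**
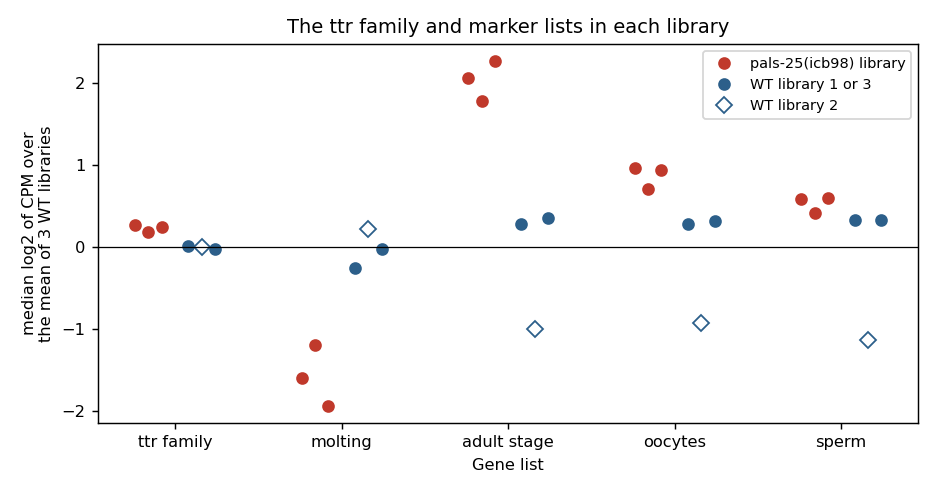
Median log2 of CPM over the mean of the 3 WT libraries, for the ttr family and for the molting, adult-stage, oocyte and sperm lists, one point per library with pals-25(icb98) left of WT. The ttr family lies between 0.18 and 0.26 in pals-25(icb98) and within 0.02 of 0 in WT, while the lists range more widely and WT library 2 (open diamond) is the lowest library of the adult-stage, oocyte and sperm lists.

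Markers of tissues that the whole animals contain were measured beside these values. The sperm list, 4 genes, summed to 243 to 275 CPM in pals-25(icb98) and to 233, 82.8 and 230 CPM in WT replicates 1, 2 and 3, and the oocyte list, 3 genes, to 250 to 296 CPM in pals-25(icb98) and to 177, 80.8 and 184 CPM in WT. No gene of either list was called. Both lists were thus lowest in WT replicate 2, the library in which 10 ttr genes were low and 8 were high. Other lists were highest there. The glial genes summed to 130 to 143 CPM in pals-25(icb98) and to 131, 196 and 138 CPM in WT replicates 1, 2 and 3, and the pharyngeal genes to 524 to 583 CPM in pals-25(icb98) and to 484, 679 and 498 CPM in WT. The oocyte list and the adult-stage list share 1 gene, the yolk receptor gene rme-2. Of 6 neuronal, 4 glial, 2 coelomocyte and 4 germline genes 0 were called. Of 5 epidermal genes 1 was higher and 2 were lower, and of 5 tested intestinal genes 1 was higher. Of 4 pharyngeal genes 1 was lower, and of 4 body wall muscle genes 1 was higher. Over all tested genes 9.8% were called higher and 10.7% lower, so single calls in lists this short are not read as a change. In whole animals, fewer cells of a type and less RNA per cell cannot be told apart. The part of cell makeup in the ttr values was not tested.

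The relatives of transthyretin outside the family are the genes homologous to 5-hydroxyisourate hydrolase, an enzyme of uric acid breakdown. One of them, R09H10.3, had 28.3 to 31.0 CPM in pals-25(icb98) and 24.3 to 26.6 CPM in WT, which did not overlap but did not pass the test (log2 change 0.21, SE 0.07, adjusted p = 0.0759). The other, ZK697.8, had too few counts to be tested. None of the 58 ttr genes is among the genes that the study lists for the intracellular pathogen response or the oomycete recognition response. These lists hold 80 and 206 genes, against 22010 genes in the data, so the absence is not read as a trait of the family.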

How the data were processed

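RNA of 3 pals-25(icb98) and 3 WT libraries was quantified by the authors with kallisto against a WS235 C. elegans transcriptome and deposited as estimated counts per transcript (35862 transcripts), with transcript lengths. The kallisto version is not given in the sources used here. Estimated counts were summed to 22010 genes by sequence name, of which 21839 matched the Ensembl WBcel235 annotation, and rounded. TPM was computed from estimated counts and effective lengths. The authors' sleuth comparisons were not used.

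Genes passing a minimum count of 10 (filterByExpr) were tested with edgeR 4.0.16 (TMM, robust quasi-likelihood, group only) in R 4.3.3, with Benjamini-Hochberg adjustment and calls at 0.05. The SE of an edgeR log2 change was derived from the test, as the size of the change divided by the square root of its F statistic. Alternatives used limma 3.58.1 and DESeq2 1.42.0. The fits were run on simulated counts with the same dispersion for every gene and no library standing apart. That simulation therefore does not show how the fits behave with a library such as WT replicate 2. Named were all called members, ttr-52, ttr-33, ttr-11, the 3 of highest TPM, untested members and uncalled ones over 1 on the log2 scale. Others, including neighbours and the 18 members apart in WT replicate 2, were named after their values were seen. The members and lists were chosen with earlier results of these data known.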

Additional observations from a re-analysis of the deposited data

How the results depend on the processing

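With each library left out in turn, the count of ttr genes called higher in pals-25(icb98) ran from 3 to 21 and the count called lower from 0 to 4, both highest without WT replicate 2. Under the other alternatives the count called higher was 12 with DESeq2 (12.4% of all genes with an adjusted p were higher). It was 9 with median-of-ratios size factors, library totals, a minimum count of 50 or limma-voom (9.66 to 10.5% of all genes). It was 8 without a filter on low counts (7.17% of all genes) or with limma on log2 TPM (pseudocount 0.5, 9.66% of all genes). Only 1 gene, ttr-25, was called lower with DESeq2, limma-voom and limma on log2 TPM. In these fits 13.3, 10.2 and 8.97% of all genes were lower. Of the 9 called members, 6 were called under all 8 alternatives that keep every library, the replicate block below among them. The median log2 change was 0.16 with a minimum count of 50 and 0.33 with limma-voom, and fewer genes were tested with that minimum. The cause of the other shifts was not tested. With a library left out, the log2 change of ttr-52 ran from -0.21 to 0.20, positive when pals-25(icb98) replicate 1 or WT replicate 2 (0.19) was dropped, and that of ttr-11 from -0.14, without WT replicate 2, to 1.21, none of them called.

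Replicate numbers are shared between the groups, but samples with the same number deviated together with correlations of 0.0811, 0.321 and 0.183, so the numbers were not taken to pair the samples. With the replicate block, 7 members were higher and 0 lower (7.32% of all genes were higher and 6.25% lower). The calls of ttr-2, ttr-38 and ttr-46 were then lost (adjusted p 0.0682, 0.0761 and 0.0529), ttr-17 was called in addition, and the median log2 change was 0.32. Depth limits the rare members: ttr-52 had at most 12 counts in a library.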
